A study of Homo sapiens with 12 samples.

Results

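Thyroxine (T4) and triiodothyronine (T3), each at 30 nM, were compared directly in cells at day 19 of hepatocyte differentiation from the established H9 line of human embryonic stem cells. The comparison took every library of the groups given T4 or T3 at that day, 2 libraries each, so 4 of the 12 libraries of the series. The other 8 libraries were from day 7 with T3, T4 or 0.1% DMSO and from day 19 with 0.1% DMSO, the control. No DMSO library entered the tests behind the calls, and DMSO levels are given as a description. A further fit of all 12 libraries, named where used, drew its estimate of spread from the DMSO libraries too. Per the labels the cells were hepatocytes at day 19, and total RNA was sequenced. The labels do not say when hormone was added, for how long cells were exposed or in which vehicle, nor whether replicate libraries stem from different cultures. The p-values therefore reflect the spread among these libraries alone, and that spread may be technical. Hepatocyte markers were in part present under both hormones: the mean level of AFP was 494 CPM with T3 and 1699.8 CPM with T4 (counts per 1e+06 counts, scaled as described below). ALB, which encodes albumin, was at only 0.824 to 2.86 CPM, CYP3A4, a drug-metabolizing cytochrome P450, stayed under 1 CPM, and CYP7A1, the rate-limiting enzyme of bile acid synthesis, was at 0 with T3 and at 0.0521 and 0.0523 CPM with T4.

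T3 and T4 are iodinated derivatives of tyrosine, and T4 carries an additional iodine on its outer ring. The nuclear receptors encoded by THRA and THRB bind T3 with higher affinity than T4, act mostly as heterodimers with retinoid X receptors (RXR), and exchange corepressors for coactivators when hormone binds. Deiodinases set the local supply: DIO1 and DIO2 can remove the outer ring iodine and turn T4 into T3, while DIO3 removes an inner ring iodine and inactivates both hormones. In liver, thyroid hormone acts on lipid, cholesterol and glucose metabolism, and the liver makes the main carrier proteins of the hormone in blood.

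The 4 libraries held 18743699 to 18809084 expected counts each, and 16681 of 23922 genes passed the filter on low counts and were tested. A gene was called at an adjusted p of at most 0.05 (edgeR's quasi-likelihood test, Benjamini-Hochberg adjustment over all tested genes). Of the tested genes, 1534 (9.2%) were called, 661 (3.96%) higher and 873 (5.23%) lower with T4 than with T3. Each count of called list members below is to be read beside these shares. The lists and their members were chosen with earlier results of these data known, so setting a count beside the shares is a description and not a test. Differences were mostly small: the median size among called genes was 0.55 on the log2 scale, and 252 genes differed by at least 2-fold, 190 of them higher with T4. The median log2 difference over all tested genes was 0.0011, and for 82.2% of them the 95% interval lay within 2-fold in either direction. No called gene had libraries that overlapped between the groups, but libraries also did not overlap for 53.7% of all tested genes. An exact permutation test of 2 against 2 libraries cannot go below a two-sided p of 0.333, so every call rests on the spread that the model shares across genes.

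The T3 libraries stood further apart than the T4 libraries, and this touches many results. Across genes, the log2 levels of T3 replicate 2 correlated with those of the T4 libraries at 0.992 and 0.992, and those of T3 replicate 1 at 0.988 and 0.988. The number of called genes was 465 without T3 replicate 1, 2323 without T3 replicate 2, 366 without T4 replicate 1 and 402 without T4 replicate 2. Below, counts given "in turn" leave out these libraries in this order. When every gene with any count was kept in the fit, 115 genes were called. Of 96 called genes named below with their test, apart from those counted on shared sequence, 37 were also called without each of the 4 libraries, and 21 under every alternative tried. These 21 were AFP, APOA1, HPX, PLG, FBP1, SLC22A7, LGALS4, COL5A2, THBS1, TNC, TGFBI, GABRP, VTCN1 and SFRP2 on the higher side, and NUPR1, ENG, TNFSF10, GDF15, WNT11, CLSTN2 and PZP on the lower side. Each other gene of the 96 lost its call without the filter, and losses from leaving out a library are given with the gene.

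**Figure D1:**
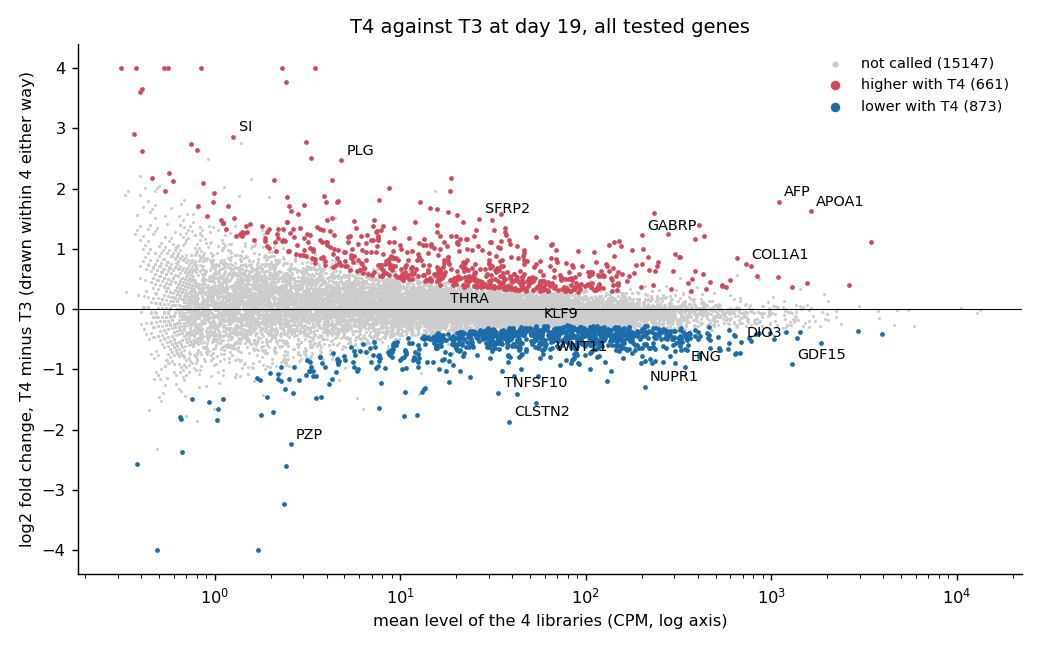
Log2 fold change of T4 against T3 at day 19 (vertical axis, drawn within 4 in either direction) against the mean level of the 4 libraries (horizontal axis, CPM, log scale) for the 16681 tested genes. Red points are the 661 genes higher with T4, blue points the 873 lower, grey points genes that were not called.

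The receptors themselves did not differ detectably. THRA, which overlaps NR1D1 on the other strand, was at 17.4 and 17.2 CPM with T3 and at 16.5 and 18.5 CPM with T4. The groups overlapped, and the log2 difference was 0.02 (95% interval -0.23 to 0.26). THRB, the main receptor of adult liver, was at 61.4 and 60.6 CPM with T3 and at 71.5 and 73.9 CPM with T4. Its libraries did not overlap, but the difference of 0.25 (0.08 to 0.42) missed the threshold (adjusted p = 0.0686), which it passed when all 12 libraries shared 1 fit (0.0392). For the RXR genes RXRA and RXRB the differences were 0.07 (-0.12 to 0.27) and 0.05 (-0.14 to 0.23), and RXRG was at or below 0.0549 CPM. Of the 4 tested receptor genes 0 were called, with a median of 0.06. All 4 intervals exclude a 2-fold difference in either direction.

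Among 14 genes of receptor corepressors and coactivators 1 was called, with a median log2 difference of -0.11. NCOA3, a coactivator, was lower with T4, at 230 and 271 CPM against 457 and 348 CPM with T3. The groups did not overlap, and the log2 difference was -0.69 (SE 0.13, adjusted p = 0.00989). It was not called without T3 replicate 1 (adjusted p = 0.0694) or without T4 replicate 1 (0.119). The mediator subunit MED1 (-0.24, -0.44 to -0.04) and the coactivator PPARGC1A (0.43, 0.02 to 0.84) did not pass. MED1 passed without T3 replicate 2 (adjusted p = 0.03).

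The inactivating deiodinase was lower with T4. DIO3 was at 903 and 729 CPM with T3 and at 539 and 575 CPM with T4, and DMSO libraries held 175 and 146 CPM. Both hormone groups were above DMSO and did not overlap each other. The log2 difference was -0.55 (interval -0.79 to -0.31, adjusted p = 0.0126), and it was not called without T3 replicate 1 (0.0906), T4 replicate 1 (0.134) or T4 replicate 2 (0.0752). DIO1, the deiodinase of liver and kidney, was at 22.1 and 34 CPM with T3 and at 38.8 and 42.5 CPM with T4, a difference of 0.54 (0.18 to 0.89) that missed the threshold (adjusted p = 0.063). It passed with DESeq2 (0.0449) and, at 0.88, without T3 replicate 2 (0.000196), and was at 0.27 without T3 replicate 1 (0.264). DIO2 was near 1 CPM in both groups, with a difference of 0.51 whose interval, -0.39 to 1.40, includes more than a 2-fold rise. Of the 3 deiodinase genes 1 was called, and their median was 0.51.

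Transporters of thyroid hormone differed in both directions: of 9 tested genes 1 was higher and 3 were lower with T4, with a median of 0.38. The organic anion transporter SLCO4A1 was lower with T4, at 36.4 and 35.8 CPM against 65 and 52.6 CPM (-0.70, SE 0.11, adjusted p = 0.00347). The amino acid transporter genes SLC7A8, at 471 and 501 CPM against 902 and 708 CPM, and SLC3A2, at 716 and 696 CPM against 979 and 899 CPM, were also lower (-0.73 and -0.41, adjusted p = 0.00448 and 0.0185). SLC7A8 was not called without T4 replicate 1 (0.0644), and SLC3A2 without T3 replicate 1 (0.127), T4 replicate 1 (0.127) or T4 replicate 2 (0.145). In turn, 2, 4, 1 and 2 transporter genes were lower.

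Carrier proteins of the hormone were higher with T4, 2 of 3 tested binding proteins, with a median of 1.16 (1, 2, 1 and 1 in turn). TTR, which encodes transthyretin, was at 196 and 283 CPM with T3, 515 and 552 CPM with T4, and 2353 and 2673 CPM with DMSO, so every T4 library lay between the T3 and DMSO libraries. The log2 difference was 1.16 (SE 0.14, adjusted p = 0.00139). ALB was called at 1.18 (SE 0.32, adjusted p = 0.048) from low levels, 0.824 and 1.45 CPM against 2.86 and 2.3 CPM. Its call was lost without T3 replicate 1 (0.252), T4 replicate 1 (0.32) or T4 replicate 2 (0.145), and with DESeq2 (0.203). SERPINA7, which encodes thyroxine-binding globulin, was not tested. It was at 0 in both T3 libraries, 0.208 and 0.366 CPM with T4 and 56.6 and 59.3 CPM with DMSO, and the T4 level was at least 3.52-fold that of T3, against a floor of 3 counts over the T3 group. CRYM, a cytosolic hormone-binding protein, differed by 0.24 (-0.20 to 0.68) and was not called.

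Known target genes of thyroid hormone were called in both directions, or not at all. Of 25 tested genes of the responsive list (30 listed), 3 were higher and 8 lower, with a median of -0.10, against 3.96% higher, 5.23% lower and 0.0011 over all tested genes. In turn, 5, 8, 3 and 4 were lower and 0, 3, 0 and 0 higher. Those higher were SHBG, the sex hormone carrier made by liver (0.98, adjusted p = 0.0256), TXNIP, an inhibitor of thioredoxin (0.30, 0.0431), and G6PC1, given below. SHBG was not called without T3 replicate 1 (0.12), T4 replicate 1 (0.151) or T4 replicate 2 (0.16), nor with DESeq2 (0.137), and TXNIP not without any of the 4 libraries (0.0714 to 0.235). KLF9, a direct target in many tissues, was at 56.1 and 63.2 CPM with T3, 45.4 and 55.8 CPM with T4 and 35.2 and 34.4 CPM with DMSO. Both hormone groups lay above DMSO, and the difference between them was -0.24 (interval -0.48 to 0.00, adjusted p = 0.217). HR, the hairless corepressor, differed by -0.44 (-0.78 to -0.10, adjusted p = 0.112). THRSP, a lipogenic target in liver, was not tested, at 0.0523 to 0.165 CPM in the 4 libraries.

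The clearest differences in that list were at genes that T3 libraries held far above DMSO. NUPR1, a stress-induced chromatin protein (chromosome 16, 28532708 to 28538974, GRCh38), was at 295 and 294 CPM with T3, 127 and 114 CPM with T4 and 6.74 and 7.52 CPM with DMSO. The 3 groups did not overlap, and T4 was 2.44-fold lower than T3 (log2 difference -1.29, SE 0.09, adjusted p = 0.000121). ENG, which encodes the TGF-beta co-receptor endoglin (chromosome 9, 127815016 to 127854658), was at 460 and 440 CPM with T3, 231 and 233 CPM with T4 and 63.7 and 64.7 CPM with DMSO. Replicates of each group agreed closely and T4 was 1.94-fold lower (-0.95, SE 0.08, adjusted p = 0.000222). TNFSF10, the death ligand TRAIL (chromosome 3, 172505508 to 172523430), was at 41.7 and 55.8 CPM with T3, 20.3 and 17 CPM with T4 and 8.86 and 8.52 CPM with DMSO, 2.62-fold lower with T4 (-1.39, SE 0.14, adjusted p = 0.000474).

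**Figure D2:**
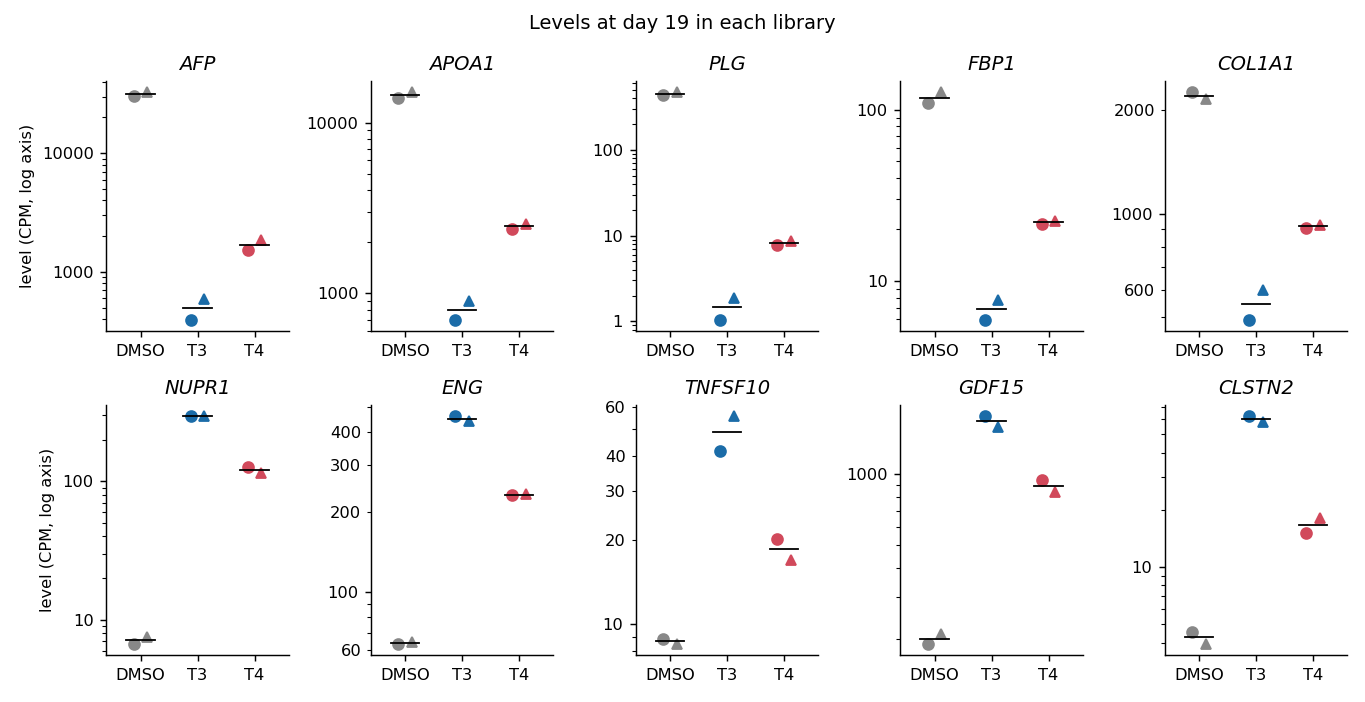
Level in each day 19 library (vertical axes, CPM, log scale) of 10 genes with DMSO (grey), T3 (blue) and T4 (red). Circles are replicate 1, triangles replicate 2 and lines the group means. For all 10 genes both T4 libraries lie between the T3 and the DMSO libraries. The 10 were picked from called genes, and the share of all genes with this order was not counted. For SCD and FADS2, not drawn, the T4 libraries lay further from DMSO than the T3 libraries did.

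Most tested genes of secreted liver proteins were higher with T4. Of 30 listed genes, 29 were in the files and 26 tested; 19 were higher with T4, 0 lower and 7 not called, with a median log2 difference of 0.86. Leaving out the libraries in turn gave 12, 24, 11 and 12 higher genes, and 4 without the filter. The summed level of the list was 5234 and 7275 CPM with T3, 11229 and 12407 CPM with T4, and 71944 and 76318 CPM with DMSO. In bulk RNA, fewer liver-like cells and less RNA per cell cannot be told apart.

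AFP, the fetal counterpart of albumin (chromosome 4, 73436221 to 73456174), was at 394 and 593 CPM with T3, 1538 and 1861 CPM with T4 and 30301 and 32526 CPM with DMSO. Both T4 libraries were above both T3 libraries, and both hormone groups far below DMSO. The difference between the hormones was 3.44-fold (log2 1.78, SE 0.17, adjusted p = 0.000353). APOA1, the main protein of high-density lipoprotein (chromosome 11, 116835751 to 116837622, overlapped by the antisense gene APOA1-AS), was at 697 and 901 CPM with T3, 2380 and 2553 CPM with T4 and 13870 and 15017 CPM with DMSO, 3.09-fold higher with T4 (1.63, SE 0.12, adjusted p = 0.000137). APOC3, an inhibitor of triglyceride clearance, was at 91.5 and 142 CPM against 342 and 362 CPM (1.59, SE 0.16, adjusted p = 0.000474), and HPX, the heme carrier hemopexin, at 17.9 and 23.7 CPM against 48.8 and 56.5 CPM (1.34, SE 0.13, adjusted p = 0.000364). PLG, which encodes plasminogen (chromosome 6, 160702193 to 160754097), was at 1.04 and 1.88 CPM with T3, 7.71 and 8.58 CPM with T4 and 429 and 466 CPM with DMSO. Its T4 to T3 ratio was 5.54-fold (2.47, SE 0.25, adjusted p = 0.000474), with both levels far under that of DMSO.

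The bases before the start site of some genes higher and some genes lower with T4 are shown from RefSeq (GRCh38.p14). Each window is 250 bases upstream of the start, written 5′ to 3′ on the gene's strand, with motif matches in capitals. AFP holds the HNF1 core and, closer to the start, a TATA box, and AHSG, which encodes the plasma protein fetuin-A, the HNF4 core, while PLG, with the largest fold of the secreted proteins, and ENG and CLSTN2, among the clearest genes lower with T4, hold none of those searched. TNFSF10, also lower with T4, holds a TATA box, and its window is not printed. AFP lies at chr4:73435971-73436220 on the plus strand, AHSG at chr3:186612810-186613059 plus, PLG at chr6:160701943-160702192 plus, ENG at chr9:127854659-127854908 minus and CLSTN2 at chr3:139934935-139935184 plus.
AFP: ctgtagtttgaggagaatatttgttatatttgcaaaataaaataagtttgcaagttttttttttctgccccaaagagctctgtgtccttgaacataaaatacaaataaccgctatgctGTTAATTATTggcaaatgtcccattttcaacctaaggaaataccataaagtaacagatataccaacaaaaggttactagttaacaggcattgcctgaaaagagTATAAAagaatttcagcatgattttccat
AHSG: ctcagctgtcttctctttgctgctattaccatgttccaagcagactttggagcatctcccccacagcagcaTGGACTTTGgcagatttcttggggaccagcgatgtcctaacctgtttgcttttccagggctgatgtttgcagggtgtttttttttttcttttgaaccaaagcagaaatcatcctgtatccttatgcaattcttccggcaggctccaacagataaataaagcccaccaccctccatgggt
PLG: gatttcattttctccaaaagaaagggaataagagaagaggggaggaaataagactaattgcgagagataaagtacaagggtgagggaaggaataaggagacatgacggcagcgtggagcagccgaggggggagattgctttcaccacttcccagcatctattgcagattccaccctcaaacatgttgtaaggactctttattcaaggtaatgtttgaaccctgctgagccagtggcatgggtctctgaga
ENG: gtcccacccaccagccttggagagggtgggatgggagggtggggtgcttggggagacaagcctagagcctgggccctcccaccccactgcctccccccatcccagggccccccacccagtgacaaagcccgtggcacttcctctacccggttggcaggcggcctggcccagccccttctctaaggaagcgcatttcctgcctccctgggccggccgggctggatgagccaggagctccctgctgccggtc
CLSTN2: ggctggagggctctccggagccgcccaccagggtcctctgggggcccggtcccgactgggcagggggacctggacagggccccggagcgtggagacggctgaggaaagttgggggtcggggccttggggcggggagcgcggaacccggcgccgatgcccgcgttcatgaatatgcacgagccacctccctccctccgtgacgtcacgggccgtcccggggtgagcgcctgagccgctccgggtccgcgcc

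Both strands of each window were searched. The HNF1 core, GTTAAT and ATT with any base between, was found in the windows of 7 of 486 genes higher with T4 that had a RefSeq window (1.44%), in 0.201% of the windows of tested genes and in 0.271% of all 27305 windows. Of 673 genes lower with T4 that had a window, 2 held it (0.297%). The HNF4 core CAAAGTCCA was found in 6 of the 486 (1.23%), in 1 of the 673 (0.149%), in 0.255% of tested genes and 0.293% of all windows, and in AHSG it lies on the other strand. The nuclear receptor motif AGGTCA was in 12.1% of the windows of genes higher with T4, 7.73% of those lower, 9.13% of all tested genes and 12.1% of all windows. The TATA box TATAAA was in 7.41% of those higher, 10.4% of those lower, 6.13% of tested genes and 11.1% of all windows, and the ATF4 composite TGATGNAAT in 1.03%, 0.892%, 0.433% and 0.916%. The direct repeat of AGGTCA with 4 bases between, an arrangement bound by thyroid hormone receptors, was in 0 windows of tested genes. These are matches of letters, not binding sites. AHSG itself was at 1.87 and 3.39 CPM with T3, 6.51 and 5.86 CPM with T4 and 454 and 523 CPM with DMSO (log2 difference 1.23, adjusted p = 0.0153), and lost its call without T3 replicate 1 (0.0773), T4 replicate 1 (0.131) or T4 replicate 2 (0.0815).

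Liver enzymes were less uniform. Of 26 tested genes of hepatocyte enzymes and transporters 8 were higher, 1 lower and 17 not called, with a median of 0.28, and in turn 3, 13, 3 and 3 were higher. FBP1, a rate-controlling enzyme of gluconeogenesis, was at 5.93 and 7.74 CPM with T3, 21.5 and 22.5 CPM with T4 and 109 and 126 CPM with DMSO. The 3 groups did not overlap, and the T4 level was 3.21-fold that of T3 (1.68, SE 0.14, adjusted p = 0.000194). ASGR1, a subunit of the asialoglycoprotein receptor, was at 14.8 and 18.5 CPM against 28.5 and 30.1 CPM (0.81, adjusted p = 0.00314). CYP3A4 differed by -0.52, with an interval of -1.50 to 0.46 that does not exclude a 2-fold difference in the lower direction. SLC22A7, an organic anion transporter of the hepatocyte membrane, had a fold of 5.68 with T4, from 0.989 and 0.967 CPM to 5.62 and 5.54 CPM (2.51, SE 0.24, adjusted p = 0.000349), against 151 and 153 CPM with DMSO.

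Regulators of liver genes were called in both directions. Of 20 tested hepatic transcription factors 2 were higher and 3 lower, with a median of 0.14 and a range from -0.70 to 1.33. HNF4A, a master regulator of hepatocytes, was at 49.4 and 61.1 CPM with T3, 72.9 and 86.3 CPM with T4 and 222 and 206 CPM with DMSO. Its T4 libraries were above its T3 libraries by 0.53 (SE 0.11, adjusted p = 0.0189), but not called without T3 replicate 1 (0.139) or T4 replicate 2 (0.166). CREB3L3, a liver and gut factor that acts on lipid genes, was at 86.4 and 102 CPM against 139 and 154 CPM (0.63, adjusted p = 0.00412, 0.0501 without T4 replicate 2). TBX3, a T-box repressor of liver bud development, was lower with T4, at 221 and 237 CPM against 416 and 328 CPM (-0.70, adjusted p = 0.00472, 0.069 without T4 replicate 1). In turn, 1, 6, 2 and 0 factors were higher and 1, 3, 0 and 1 lower.

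Markers of intestine were among the genes higher with T4. Of 13 tested genes of the intestine and pancreas list 5 were higher and 0 lower, with a median of 0.44. Without the filter 1 was called higher. LCT, the intestinal lactase, was at 205 and 248 CPM with T3, 499 and 685 CPM with T4 and 1415 and 1264 CPM with DMSO (1.39, SE 0.15, adjusted p = 0.000551). SI, the sucrase of the same brush border, was at 0.384 and 0.215 CPM against 1.93 and 2.51 CPM (2.86, SE 0.41, adjusted p = 0.00291). VIL1, which encodes the microvillus protein villin, and LGALS4, a galectin of gut epithelium, were at 56.2 and 65 CPM against 28.8 and 34.9 CPM and at 29.5 and 31.7 CPM against 14.3 and 16.4 CPM (0.93 and 0.99, adjusted p = 0.00106 and 0.000634). Summed, the list was at 501.8 and 633.8 CPM with T3 and at 989.7 and 1212 CPM with T4, and the pancreatic factor NKX6-1 was at 0. The gut regulators CDX1, CDX2 and ISX were not called, at -0.18, 0.06 and 0.0020.

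**Figure D3:**
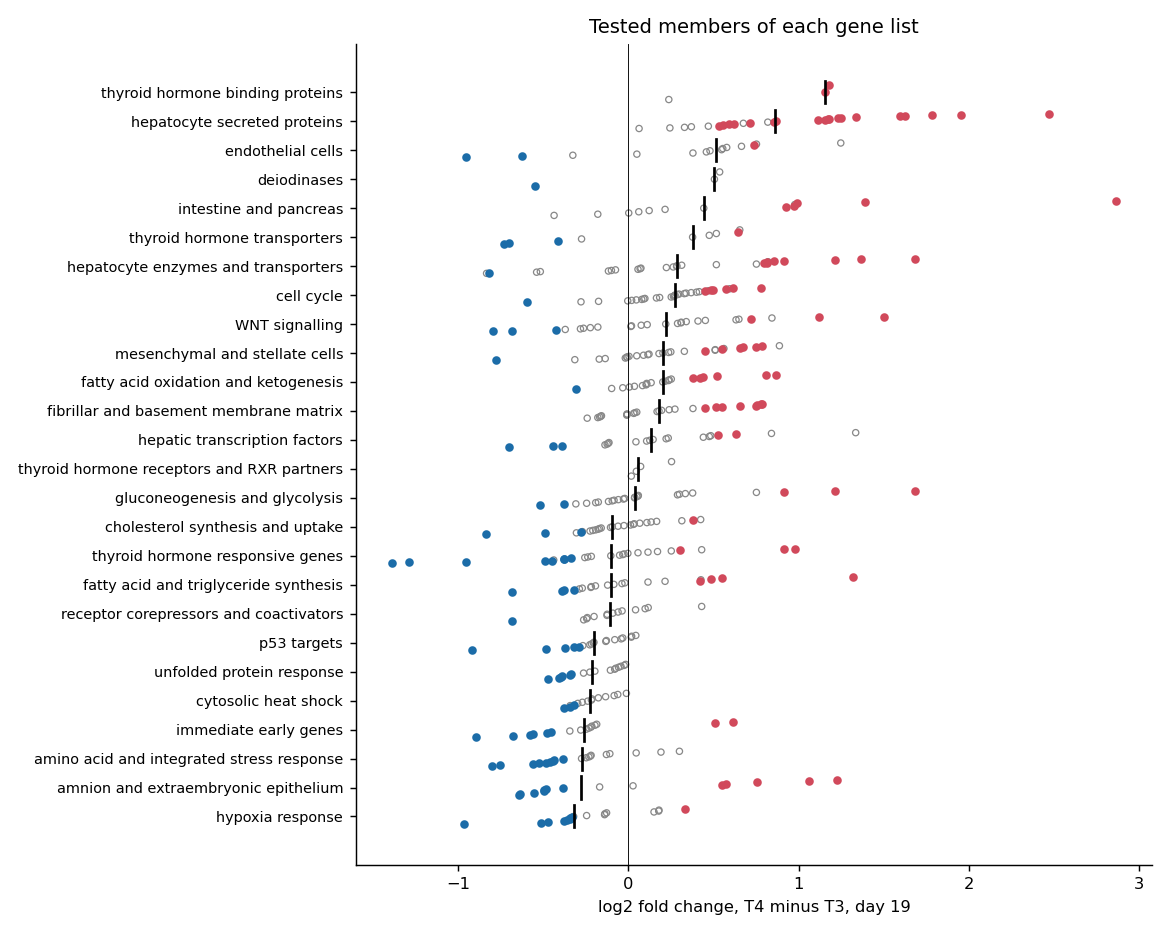
Log2 fold change of T4 against T3 at day 19 (horizontal axis) for each tested member of 26 gene lists. Filled red points were called higher with T4, filled blue points lower, and open points were not called; black bars are list medians, which run from -0.32 for the hypoxia response to 1.16 for hormone binding proteins.

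Matrix genes were higher with T4, whereas contractile markers of mesenchyme were not called. Of 25 fibrillar and basement membrane matrix genes 8 were higher and 0 lower (median 0.18; 6, 11, 7 and 5 higher in turn), and of 27 mesenchymal and stellate cell genes 6 were higher and 1 lower (median 0.20; 4, 14, 4 and 3 higher in turn). COL1A1, the alpha 1 chain of type I collagen (chromosome 17, 50184101 to 50201631), was at 491 and 601 CPM with T3, 905 and 929 CPM with T4 and 2248 and 2146 CPM with DMSO. The groups did not overlap and T4 was 1.68-fold higher (0.75, SE 0.11, adjusted p = 0.00269). TNC, the matrix glycoprotein tenascin C, was at 190 and 170 CPM against 313 and 305 CPM (0.78, SE 0.09, adjusted p = 0.000733), COL5A2 at 80 and 86 CPM against 132 and 153 CPM (0.78, adjusted p = 0.00104), and THBS1, which encodes thrombospondin 1, at 60.4 and 59.9 CPM against 86.6 and 85.4 CPM (0.52, adjusted p = 0.00327). COL5A1 and COL6A3 were called at 0.55 and 0.65 (adjusted p = 0.00512 and 0.0067), COL5A1 not without T4 replicate 2 (0.0602) and COL6A3 not without T3 replicate 1 (0.0501) or T4 replicate 2 (0.0828). The contractile genes ACTA2, TAGLN, MYL9 and CNN1 were at -0.02, -0.17, -0.01 and 0.09. Summed, the mesenchymal markers were at 18859 and 19047 CPM with T3 and 19407 and 21172 CPM with T4, and none was at 0.

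Genes of amnion and other extraembryonic epithelium differed in both directions: of 14 tested genes 5 were higher and 7 lower with T4, with a median of -0.28 (4, 5, 2 and 4 higher and 2, 7, 3 and 0 lower in turn). GABRP, a GABA receptor subunit, was at 113 and 127 CPM with T3, 282 and 278 CPM with T4 and 449 and 411 CPM with DMSO. T4 was 2.34-fold higher (1.22, SE 0.09, adjusted p = 0.000128). VTCN1, a checkpoint protein of the B7 family, was at 83.2 and 88.7 CPM against 182 and 176 CPM (1.06, SE 0.08, adjusted p = 0.000137). Placental hormone genes were lower instead: CGB5, a beta subunit of chorionic gonadotropin with near-identical copies whose reads may be split, was at 131 and 126 CPM against 185 and 178 CPM, and HSD3B1, a steroidogenic enzyme of placenta, at 187 and 174 CPM against 304 and 257 CPM (-0.50 and -0.64, adjusted p = 0.00448 and 0.00382). Both lost the call without T4 replicate 2 (0.066 and 0.0561). The summed list was at 6116 and 5644 CPM with T3 and 5330 and 5111 CPM with T4, with no member at 0.

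Endothelial markers gave counts that changed with the library left out. Of 14 tested genes 1 was higher and 2 lower (0, 6, 0 and 0 higher and 1, 2, 1 and 2 lower in turn), with a median of 0.51 that ran from 0.20 to 0.84 over the alternatives, and the summed level was 630.3 and 627.2 CPM with T3 and 398.3 and 429.2 CPM with T4, most of it ENG; no member was at 0. CDH5, the endothelial cadherin, was lower at 38.5 and 45.2 CPM against 72.3 and 56.5 CPM (-0.62, adjusted p = 0.0117; 0.097 without T3 replicate 1 and 0.128 without T4 replicate 1). ESAM, an endothelial adhesion molecule, was higher (0.74, adjusted p = 0.028), but not with DESeq2 (0.0743) or without T3 replicate 1 (0.151), T4 replicate 1 (0.187) or T4 replicate 2 (0.13). The receptor KDR was not called at 0.55 (0.21 to 0.89, adjusted p = 0.0525). It passed with DESeq2 (0.0261) and, at 0.84, without T3 replicate 2 (0.000592), and was at 0.31 without T3 replicate 1 (0.284). Other cell types had 0 higher and 1 lower of 14 cholangiocyte genes (7.14% lower), 0 and 1 of 5 blood cell genes (20% lower), 1 and 1 of 9 neural genes (11.1% each way), 0 and 0 of 15 pluripotency genes and 0 and 1 of 13 definitive endoderm genes (7.69% lower). Over all tested genes 3.96% were higher and 5.23% lower. Their summed levels ran from 4525 to 4632 CPM with T3 and 4151 to 4449 CPM with T4 for cholangiocytes (no gene at 0), from 170.006 to 193.9 and 148.3 to 152.7 CPM for blood (the globins HBA2 and HBG2 at 0), and from 287.8 to 314.2 and 254.4 to 266.5 CPM for neural genes (NEUROD1 at 0). POU5F1, a pluripotency factor, was at 3.23 to 4.86 CPM in the 4 libraries. The part that cell composition had in the results above was not tested.

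Several stress genes were lower with T4. Of 19 tested genes of the amino acid and integrated stress response 9 were lower, 0 higher and 10 not called, with a median of -0.28 (2, 10, 2 and 1 lower in turn). DDIT3, which encodes the stress factor CHOP and overlaps MARS1, was at 61.8 and 49.3 CPM with T3, 32.4 and 31.3 CPM with T4 and 14.8 and 15.1 CPM with DMSO. The groups did not overlap, and the difference was -0.80 (SE 0.11, adjusted p = 0.00227). TRIB3, a pseudokinase induced by CHOP, differed by -0.75 (adjusted p = 0.00509, 0.0597 without T4 replicate 2), ATF3 by -0.56 (0.00768) and the glycoprotein gene STC2 by -0.44 (0.0105). ATF3 lost its call without T3 replicate 1 (0.0522), T4 replicate 1 (0.0878) or T4 replicate 2 (0.066), and STC2 likewise (0.08, 0.0589 and 0.126). GDF15, a stress-induced cytokine (chromosome 19, 18386158 to 18389176), was at 1772 and 1590 CPM with T3, 943 and 840 CPM with T4 and 191 and 210 CPM with DMSO. T4 was 1.89-fold lower than T3 (-0.92, SE 0.10, adjusted p = 0.000685).

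The p53 targets, the list that holds GDF15, had 5 of 18 lower and 0 higher, with a median of -0.20 (1, 4, 1 and 1 lower in turn). SESN2 (-0.48), BBC3 (-0.37) and TP53INP1 (-0.29), at adjusted p of 0.011, 0.0277 and 0.0388, were not called without T3 replicate 1 (0.0842, 0.21 and 0.153), T4 replicate 1 (0.0961, 0.111 and 0.226) or T4 replicate 2 (0.0995, 0.204 and 0.195). TP53INP1 also missed the threshold without T3 replicate 2 (0.0598) and with DESeq2 (0.0933). Of 16 unfolded protein response genes 6 were lower and 0 higher, with a median of -0.21 (0, 7, 0 and 0 lower in turn). HERPUD1, a component of protein degradation at the endoplasmic reticulum, was at 286 and 295 CPM against 420 and 387 CPM (-0.47, adjusted p = 0.00786), and XBP1 (-0.39), EDEM1 (-0.41) and DNAJB9 (-0.34) had adjusted p of 0.0195, 0.0239 and 0.0289. None of these 4 was called without T3 replicate 1 (0.0594 to 0.194), T4 replicate 1 (0.0998 to 0.205) or T4 replicate 2 (0.0683 to 0.163), and DNAJB9 not with DESeq2 (0.0566).

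Cytosolic heat shock genes had 3 of 14 lower and 0 higher, with a median of -0.23 (0, 6, 0 and 0 lower in turn). CRYAB, DNAJB1 and HSPA1A differed by -0.38, -0.32 and -0.34 (adjusted p = 0.0199, 0.0366 and 0.0399) and were not called without T3 replicate 1 (0.151, 0.209 and 0.251), T4 replicate 1 (0.102, 0.198 and 0.269) or T4 replicate 2 (0.162, 0.221 and 0.162). HSPA1B, a near-identical copy of HSPA1A, so that reads may be split between them, was at -0.34 (adjusted p = 0.0529), passing with DESeq2 (0.0159) and without T3 replicate 2 (0.00548). The hypoxia response had 8 of 17 lower and 1 higher, with a median of -0.32 (1, 6, 1 and 0 lower in turn). ADM, the peptide adrenomedullin, was at 118 and 113 CPM against 155 and 174 CPM (-0.51, adjusted p = 0.00594; 0.0586 without T4 replicate 1 and 0.0779 without T4 replicate 2), and BNIP3, a mitophagy receptor, at 111 and 102 CPM against 152 and 143 CPM (-0.47, adjusted p = 0.00742; 0.062 without T3 replicate 1 and 0.0973 without T4 replicate 2). VEGFA was lower (-0.36, adjusted p = 0.0318) and NDRG1 higher (0.33, 0.0291). Both lost the call without T3 replicate 1 (0.192 and 0.124), T4 replicate 1 (0.258 and 0.142) or T4 replicate 2 (0.124 and 0.204).

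Of 16 immediate early genes 6 were lower, 2 higher and 8 not called, with a median of -0.26 (2, 7, 2 and 2 lower and 1, 2, 1 and 1 higher in turn). KLF4, a transcription factor of epithelia, was at 135 and 101 CPM with T3 and 63.7 and 63.5 CPM with T4, against 22.5 and 17.9 CPM with DMSO (-0.89, SE 0.12, adjusted p = 0.00204). NR4A1, an orphan nuclear receptor, was at 58.2 and 49.5 CPM against 33.3 and 33.9 CPM (-0.68, adjusted p = 0.00264). JUN, a subunit of AP-1, went the other way, at 77.6 and 89.5 CPM with T3, 131 and 124 CPM with T4 and 167 and 156 CPM with DMSO (0.61, SE 0.09, adjusted p = 0.00317).

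Lipid genes were called in both directions. Of 20 genes of fatty acid and triglyceride synthesis 4 were higher and 4 lower, with a median of -0.10 (1, 4, 2 and 1 higher and 1, 5, 1 and 1 lower in turn). DGAT2, which makes triglycerides, was at 12.1 and 17.3 CPM with T3, 33.6 and 39.9 CPM with T4 and 386 and 383 CPM with DMSO (1.32, SE 0.15, adjusted p = 0.000869). DGAT1, which catalyses the same step and overlaps HSF1, was higher by 0.55 (adjusted p = 0.00699; 0.0532 without T3 replicate 1 and 0.0784 without T4 replicate 2). SCD, the desaturase of saturated fatty acids, was lower with T4, at 382 and 432 CPM against 674 and 634 CPM, and DMSO libraries held 1041 and 968 CPM, so for SCD the T4 libraries lay further from DMSO than the T3 libraries did (-0.69, SE 0.09, adjusted p = 0.00216). FADS2, a desaturase of polyunsaturated fatty acids, had the same order, at 172 and 167 CPM with T3, 127 and 131 CPM with T4 and 311 and 314 CPM with DMSO (-0.39, adjusted p = 0.0125). It was not called without T3 replicate 1 (0.0747), T4 replicate 1 (0.137) or T4 replicate 2 (0.0919).

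Of 21 genes of fatty acid oxidation and ketogenesis 6 were higher and 1 lower, with a median of 0.20 (2, 9, 2 and 0 higher in turn). EHHADH, a peroxisomal enzyme, was at 9.01 and 9.83 CPM against 15.2 and 17.9 CPM (0.81, adjusted p = 0.00523). It lost the call without T4 replicate 2 (0.0716). ACAA2 and ACADS, of mitochondrial beta-oxidation, were at 0.52 and 0.44 (adjusted p = 0.00949 and 0.0226), and were not called without T3 replicate 1 (0.0663 and 0.159), T4 replicate 1 (0.0515 and 0.184) or T4 replicate 2 (0.0954 and 0.087). Of 25 genes of cholesterol synthesis and uptake 1 was higher and 3 lower, with a median of -0.09, and INSIG1, which holds back the activation of sterol synthesis genes, was lower (-0.28, adjusted p = 0.0456), while TM7SF2, a sterol reductase, was higher (0.38, 0.0365). INSIG1 lost its call without each of the 4 libraries (0.0752 to 0.25), and TM7SF2 without each but T3 replicate 2 (0.0994 to 0.27). Both lost it with DESeq2 (0.116 and 0.0546).

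Of 25 genes of gluconeogenesis and glycolysis 3 were higher and 2 lower, with a median of 0.04. FBP1, given above, was higher, as was G6PC1, which releases glucose from glucose 6-phosphate (0.91, adjusted p = 0.0159); HK2, a hexokinase of glycolysis, was lower (-0.52, 0.0133). G6PC1 and HK2 were not called without T3 replicate 1 (0.0946 and 0.103), T4 replicate 1 (0.068 and 0.138) or T4 replicate 2 (0.141 and 0.0621). In oxidative phosphorylation 0 of 29 tested genes were called by edgeR, and their differences ran from -0.13 to 0.18.

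Cell cycle genes had 6 of 31 higher and 1 lower, with a median of 0.27, although the counts higher in turn were 0, 5, 0 and 0. TOP2A, the topoisomerase of dividing cells, was at 51.3 and 49.2 CPM against 36.1 and 37.6 CPM (0.45, adjusted p = 0.00889), BIRC5, which encodes survivin, at 18.5 and 18.5 CPM against 12.5 and 12.4 CPM (0.57, 0.0111), and CCNB2, a mitotic cyclin, at 12.5 and 13.2 CPM against 8.57 and 8.22 CPM (0.62, 0.0159). CCNE1, a cyclin of the start of DNA replication, was lower at 112 and 108 CPM against 185 and 147 CPM (-0.60, 0.00776). All 4 lost the call without T3 replicate 1 (0.0501 to 0.0671), T4 replicate 1 (0.0684 to 0.0984) or T4 replicate 2 (0.0561 to 0.134), and CCNB2 with DESeq2 (0.0679). MKI67, a general proliferation marker, was not called at 0.33 (0.04 to 0.61, adjusted p = 0.153).

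WNT pathway genes had 3 of 25 higher and 3 lower, with a median of 0.22 (2, 6, 2 and 2 higher and 1, 3, 1 and 1 lower in turn). SFRP2, a secreted WNT modulator (chromosome 4, 153780591 to 153789083), was at 13.8 and 14 CPM with T3, 40 and 38.7 CPM with T4 and 91.2 and 83.5 CPM with DMSO. Replicates almost coincided, and T4 was 2.83-fold higher (log2 1.501, SE 0.09, adjusted p = 9.52e-05). FZD2, a WNT receptor, was at 24.9 and 29 CPM against 46.7 and 42.2 CPM (0.72, SE 0.10, adjusted p = 0.00262). The ligand WNT11 was lower with T4, at 50.6 and 42.7 CPM against 83.3 and 78.5 CPM (-0.79, SE 0.09, adjusted p = 0.00108), as was the WNT-inactivating esterase NOTUM (-0.68, adjusted p = 0.0175). NOTUM was not called without T3 replicate 1 (0.12), T4 replicate 1 (0.102) or T4 replicate 2 (0.14), nor with DESeq2 (0.063).

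By size of change and a level of at least 1 CPM in a group, the genes lowest with T4 relative to T3 included CLSTN2, a calsyntenin of synaptic adhesion (chromosome 3, 139935185 to 140577397), at 62.4 and 58.5 CPM with T3, 15.1 and 18 CPM with T4 and 4.57 and 3.95 CPM with DMSO. T4 was 3.65-fold lower (-1.87, SE 0.10, adjusted p = 5.53e-05). PZP, a plasma protease inhibitor, was at 4.61 and 3.87 CPM with T3, 0.781 and 0.994 CPM with T4 and 0 and 0.0557 CPM with DMSO (-2.25, SE 0.27, adjusted p = 0.00124). GADL1, KRT74, MS4A15, LYPD2, ATP2B3 and the acute phase gene SAA1, with all T4 levels at or under 1.09 CPM, were at -1.71, -2.38, -1.84, -1.82, -1.66 and -1.76. Each of these 6 lost the call without T4 replicate 1 (0.0551 to 0.235) or T4 replicate 2 (0.087 to 0.263). Without T3 replicate 1, KRT74 (0.119), MS4A15 (0.0586), LYPD2 (0.335) and ATP2B3 (0.24) lost it too, as SAA1 did without T3 replicate 2 (0.313), and DESeq2 called none of the 6 but GADL1 (0.0522 to 0.266 for the others). On the higher side stood SI, SLC22A7 and PLG, given above, and CASR, the calcium-sensing receptor (2.74, from 0.275 and 0.107 to 1.51 and 1.1 CPM), and UGT2A3, a glucuronosyltransferase (2.63, from 0.275 and 0.161 to 1.04 and 1.73 CPM). CASR was not called without T4 replicate 1 (0.128) or T4 replicate 2 (0.0564), and UGT2A3 without T3 replicate 1 (0.0611) or T4 replicate 2 (0.138).

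Several of the largest fitted changes rested on sequence shared with other genes. TMX2-CTNND1, a readthrough transcript, was at 0 in both T3 libraries and at 5.88 and 8.05 CPM with T4, at least 85.5-fold higher against a floor of 3 counts over the T3 group. The genes it spans, TMX2 and CTNND1, were at -0.17 and -0.26 and were not called. SERF1A was at 0 with T3 and 4.22 and 4.97 CPM with T4, at least 56.4-fold higher, while its copy SERF1B was at -0.36 and not called. CORO7-PAM16 was at 2.75 and 4.08 CPM with T3 and 0 with T4, at least 43.6-fold lower, with CORO7 at -0.02 and PAM16 at -0.08. CCDC180, SMIM11 and TGIF2-RAB5IF, all at 0 with T3, were at least 13.8-fold, 20.8-fold and 13.1-fold higher with T4, TGIF2-RAB5IF without a call when T3 replicate 1 was left out (0.0597). MAP1LC3B2, a near copy of the autophagy gene MAP1LC3B, was at 19.1 and 13.3 CPM against 4.89 and 4.55 CPM (-1.78, adjusted p = 0.000551), and MAP1LC3B itself at -0.28 was not called. ATP6V1G2-DDX39B was lower (-2.61), COMMD3-BMI1 (3.77) and PLA2G4B (2.77) higher, and the adjacent DDX39B, COMMD3, BMI1 and JMJD7 were not called. The readthrough JMJD7-PLA2G4B, which overlaps PLA2G4B, went the other way in edgeR's test of the change between the days, given below. Its value was -2.50 (adjusted p = 0.000639), against 3.59 for PLA2G4B (0.0091). DESeq2 called neither COMMD3-BMI1 (adjusted p = 0.429) nor PLA2G4B (0.8), PLA2G4B was not called without T4 replicate 1 (0.147) or T4 replicate 2 (0.114), and COMMD3-BMI1 not without T4 replicate 1 (0.0589). RSEM divides shared reads among such transcripts, so these values are uncertain.

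The change in the hormone difference between the days was tested over the 8 hormone libraries, which the 2 days do not share. Day 7 levels are given as a description, since T4 against T3 was not tested at that day alone. The share of all genes whose day 7 libraries do not overlap was not counted. At day 19 it was 53.7%, so an order of the libraries at day 7 is not a call. Replicates differed more at day 19: in units of the variance from counting alone, their mean squared difference was 8.36 with T3 and 4.72 with T4. At day 7 it was 2.05 and 1.61. The fit took 1 spread per gene for both days, so its p-values may be too small for genes that vary mainly at day 19. Of 17780 genes tested 698 (3.93%) were called, 415 with a T4 minus T3 difference that was greater at day 19 and 283 with one that was smaller. AFP was at 85.8 and 83.6 CPM with T3 and 67.8 and 67.2 CPM with T4 at day 7. In these libraries T4 was below T3, the opposite order to day 19, and the difference between the days was 2.11 (SE 0.21, adjusted p = 0.000237). SFRP2 was at 61.6 and 60.1 CPM with T3 and 37.9 and 36.3 CPM with T4 at day 7, also the opposite order. Its difference between the days was 2.22 (adjusted p = 2.92e-07). APOA1 at day 7 was at 1661 and 1541 CPM with T3 and at 1667 and 1610 CPM with T4, overlapping groups, and the difference between the days was 1.59 (adjusted p = 7.02e-05). At day 7 GABRP and VTCN1 were at 39 and 40.6 against 33.4 and 37.4 CPM and at 100 and 102 against 80.4 and 79.8 CPM (T3 first). Both had T4 below T3 there, and their differences between the days were 1.39 and 1.39 (adjusted p = 4.03e-05 and 4.77e-06).

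**Figure D4:**
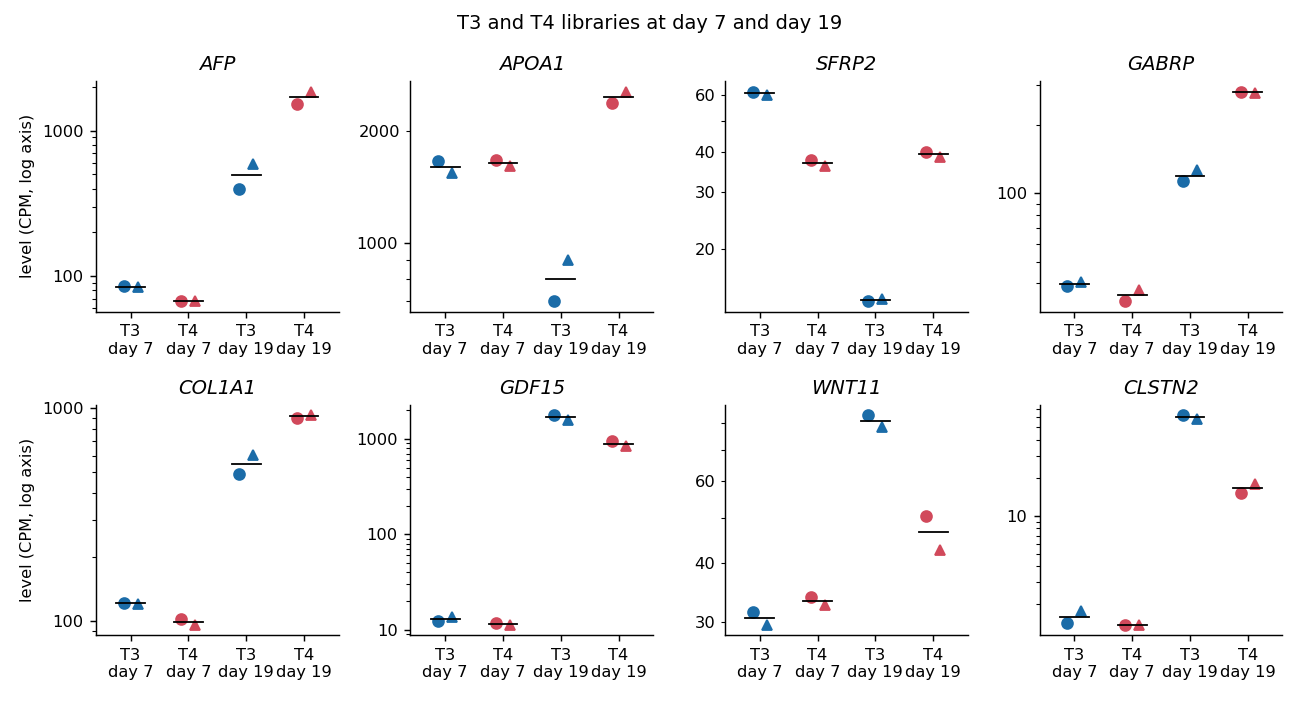
Level of 8 genes in each T3 (blue) and T4 (red) library at day 7 and day 19 (vertical axes, CPM, log scale). Circles are replicate 1, triangles replicate 2 and lines the group means. For AFP, SFRP2 and COL1A1 the T4 libraries lie below the T3 libraries at day 7 and above them at day 19. The order at day 7 was not tested by itself.

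COL1A1, at 122 and 121 CPM with T3 and 103 and 96.1 CPM with T4 at day 7, differed between the days by 1.04 (adjusted p = 0.000635), and TNC by 0.94 (adjusted p = 0.000411). Both T4 libraries of day 7 were below both T3 libraries for these 2 genes, an order that was not tested at that day. WNT11 had T4 above T3 at day 7, at 33.8 and 32.5 CPM against 31.4 and 29.5 CPM, and differed between the days by -0.91 (adjusted p = 0.0016). GDF15, at 11.2 to 13.4 CPM in the day 7 hormone libraries, differed by -0.75 (adjusted p = 0.00996), and CLSTN2, at 1.38 to 1.79 CPM, by -1.65 (adjusted p = 0.00616). For DIO3 the day 7 levels were 30.4 and 28.2 CPM with T3 and 21.3 and 21.5 CPM with T4. The T4 libraries were thus below the T3 libraries on both days, and the difference between the days was -0.09 (interval -0.39 to 0.21, adjusted p = 0.79). KLF9 (-0.40), HR (0.09), THRA (0.07) and THRB (0.40) did not pass either, with adjusted p of 0.246, 0.922, 0.828 and 0.0574. The effect of leaving out a library on single genes of this test was not computed.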

How the data were processed

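RNA sequencing libraries of H9-derived cells were analysed from the deposited RSEM tables, which hold expected counts and FPKM per transcript. Per the submitters' processing notes the authors used HISAT, Bowtie2 and RSEM with hg38; versions and the strand of counting are not given in the sources used here. Expected counts were summed per gene and rounded (23922 genes, 23801 matched to a symbol). T4 and T3 at day 19 were compared with edgeR 4.0.16 in R 4.3.3 (TMM scaling, filterByExpr on the 4 libraries, quasi-likelihood test, two-sided, Benjamini-Hochberg adjustment over all tested genes, threshold 0.05), and the difference between the days in the same way over 8 libraries. The FPKM deposited by the authors served only in an alternative, limma 3.58.1 on log2(FPKM + 0.1); other alternatives were RLE size factors, DESeq2 1.42.0, no filter, at least 1 CPM in 2 libraries, all 12 libraries in 1 fit, a replicate block, leaving out the 10 most abundant genes and leaving out each library. Levels are CPM scaled by TMM on 1 scale for 12 libraries and are not length-corrected, so they are compared only within a gene. The floor is 3 counts over a group; intervals are 95% and cover the spread between libraries.

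Tested on simulated counts for 16460 genes, the day 19 fit recovered 71.1% of 1.5-fold, 85% of 2-fold and 100% of 4-fold changes. The 200 changed genes had a mean count of at least 20. Every gene was drawn at the spread fitted for its level, the same in both groups. The real T3 libraries stood further apart than the T4 libraries, so recovery in these data may be lower. Named genes were the 12 highest and 12 lowest log2 differences among called genes with at least 1 CPM in a group and libraries that do not overlap, without LOC, LINC, MIR, SNORA and SNORD names, 20 fixed genes, and the 4 smallest p in each of 26 lists. AHSG, SHBG, TXNIP, TGFBI, CYP1A1, CYP1B1, SFRP5, the contractile genes, CDX1, CDX2, ISX, the other UGT1A genes and the genes adjacent to readthrough transcripts were named after their values were seen. The members and lists were chosen with earlier results of these data known. Motifs were searched on both strands of 250 bases upstream of RefSeq start sites. Some genes that this rule names are not reported here.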

Additional observations from a re-analysis of the deposited data

Results flagged for a closer look

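For 44 of the named genes, leaving out those counted on shared sequence, the T4 to T3 difference at day 19 departed from that at day 7 (edgeR's quasi-likelihood test of the difference, adjusted p at most 0.05). In all, 112 such genes had a day 19 test. Values are log2 and positive where the T4 minus T3 difference was greater at day 19. On the positive side were genes of secreted liver proteins, enzymes, transporters and lipid metabolism, with the factor CREB3L3: SLC22A7 2.81, PLG 2.43, AFP 2.11, FBP1 1.68, APOA1 1.59, APOC3 1.57, DGAT2 1.35, HPX 1.31, TTR 0.93, EHHADH 0.89, CREB3L3 0.82, ASGR1 0.77 and DGAT1 0.55, with the gut gene VIL1 at 0.84. Matrix and adhesion genes were TGFBI 1.42, COL6A3 1.36, COL1A1 1.04, COL5A2 1.002, TNC 0.94, COL5A1 0.64 and THBS1 0.56. The others on this side were SFRP2 2.22, GABRP 1.39, VTCN1 1.39, CCNB2 0.65, BIRC5 0.62, JUN 0.60, FZD2 0.55, NDRG1 0.52 and TOP2A 0.44.

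On the negative side stood CLSTN2 -1.65, CDH5 -1.004, WNT11 -0.91, TBX3 -0.77, NCOA3 -0.76, GDF15 -0.75, ENG -0.67, DDIT3 -0.64, SCD -0.51, TP53INP1 -0.42, XBP1 -0.39, HERPUD1 -0.37, FADS2 -0.35 and BNIP3 -0.35. The factors TBX3 and XBP1 and the desaturases SCD and FADS2 thus had the opposite sign to CREB3L3, DGAT1 and DGAT2 of the same lists. Among genes counted on shared sequence, TMX2-CTNND1, PLA2G4B, SERF1A, CCDC180, ATP6V1G2-DDX39B and MAP1LC3B2 were also called. Over all 17780 tested genes 3.93% were called in this test, which took 1 spread per gene for both days. Most named genes were picked on their day 19 difference between the hormones, which is itself part of this test. The count and the signs given here therefore cannot be weighed against that share.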

How the results depend on the processing

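The 1534 genes called at day 19 became 115 without the filter, 708 with limma on FPKM (63.1% higher with T4, against 43.1%), 2895 with all 12 libraries in 1 fit and 2335 with the replicate block, and 366 to 2323 when a library was left out, an arm of 1 library then being assumed to vary like the other. RLE size factors (1475), DESeq2 (1088), at least 1 CPM (1633) and leaving out abundant genes (1545) stayed within 1.5 times. The 698 calls for the difference between the days became 342 without the filter, 367 with limma on FPKM, 720 with the replicate block and 114 to 2011 without a library (132 without D7_T3 replicate 1, 160 without D7_T3 replicate 2, 150 without D7_T4 replicate 1, 114 without D7_T4 replicate 2, 2011 without D19_T3 replicate 2, 215 without D19_T4 replicate 1 and 347 without D19_T4 replicate 2). The cause was not tested. No called named gene changed sign. Among those not called, THRA ran from -0.069 to 0.097 and RXRA from -0.0048 to 0.158 without a library, and POU5F1 from -0.455 to 0.135, and was 0.0133 with limma on FPKM. The labels do not say whether same-numbered libraries pair. Their deviations correlated at 0.043 at day 19 and 0.017 at day 7, which cannot settle it, with 1 difference between replicates per group. With the replicate block, 4 named genes not called in the main fit passed edgeR's quasi-likelihood test: DIO1 (adjusted p = 7.61e-06), KDR (3.43e-06), HSPA1B (0.00953) and HR (0.0392). With all 12 libraries in 1 fit, THRB (0.0392), DIO1 (0.0156), HSPA1B (0.00375), MED1 (0.0415) and KDR (0.0148) passed it. Limma on FPKM lost the calls of several named genes, among them NCOA3 (adjusted p = 0.0541), DIO3 (0.063), HNF4A (0.068) and ALB (0.0732).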

Other observations

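TGFBI, a matrix protein induced by TGF-beta, was at 259 and 266 CPM with T3, 635 and 583 CPM with T4 and 1360 and 1230 CPM with DMSO (log2 difference 1.22, adjusted p = 0.000128 by edgeR's quasi-likelihood test). It was called higher under each alternative tried. It was the only higher gene of 18 in the TGF-beta list, of which 1 was lower. The BMP list had 1 of 20 higher and 1 lower, the FGF list 2 and 3 of 14, the IGF list 1 and 0 of 18, the interferon list 0 and 1 of 19, the NRF2 list 0 and 2 of 16 and the metallothioneins 0 and 1 of 7, against 3.96% and 5.23% over all tested genes. Without T3 replicate 2, 6 interferon genes and 6 metallothioneins were higher, and 4 metallothioneins with all 12 libraries in 1 fit. SFRP5, a secreted WNT modulator, was higher (1.12, adjusted p = 0.0321), but not without T3 replicate 1 (0.161), T4 replicate 1 (0.102) or T4 replicate 2 (0.228).

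Glucuronosyltransferases of the UGT1A locus, which conjugate bilirubin and drugs, included genes called lower with T4. UGT1A1 was at 62.5 and 81.3 CPM with T3, 42.7 and 38.7 CPM with T4 and 13.2 and 12.6 CPM with DMSO (-0.82, adjusted p = 0.00315). UGT1A4 was at 15.2 and 22.9 CPM against 5.57 and 5.65 CPM (-1.76, adjusted p = 0.000685), and UGT1A3 and UGT1A6 at -1.04 and -0.71 (adjusted p = 0.0109 and 0.0275). UGT1A4 was not called without the filter (adjusted p = 0.0523). For UGT1A3 and UGT1A6 the effect of the alternatives was not computed. These genes share exons, so reads may be divided between them. Among targets of the aryl hydrocarbon receptor, CYP1A1 was higher (0.34, adjusted p = 0.0379) and CYP1B1 lower (-0.65, 0.0153), while CYP1A2 (0.13), AHRR (-0.41) and TIPARP (-0.30) were not called. Neither CYP1A1 nor CYP1B1 was called without T3 replicate 1 (0.2 and 0.0663), T4 replicate 1 (0.182 and 0.119) or T4 replicate 2 (0.216 and 0.103).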
